A study of Homo sapiens with 8 samples.

Results

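Glycolysis genes and hypoxia response genes, 35 of the 36337 gene names on the array, were compared between human cells that expressed GFP, HuR, TIA1 or TIAR. They were chosen by name: 22 genes of sugar uptake and breakdown (glucose transporters, glycolytic enzymes, lactate dehydrogenases and the kinases that set glycolytic flux) and 13 genes of oxygen sensing and the hypoxia response. They had 49 of the 50599 probes. FT293 cells are HEK293 cells, a line from human embryonic kidney, with a recombination site that takes up a transgene under a tetracycline-inducible promoter. The 4 groups were the GFP line and the lines expressing GFP-HuR, GFP-TIA1 and GFP-TIAR, each an isogenic stable line grown with tetracycline until day 3, so that all groups, controls included, carried an induced GFP transgene. Total RNA was hybridized to 8 one-colour arrays, 2 per line. The arrays of a line are independent biological replicates. The values are log2 processed signals relative to the 75th percentile of the same array, so that 0 is the signal at that percentile and a difference of 1 is a 2-fold change. They are relative signals of a probe and give no order of RNA amounts between genes.

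TIA1 and TIAR are closely related RNA-binding proteins that bind uridine-rich and AU-rich sequences, take part in splicing and repress translation. HuR (ELAVL1) binds similar sequences and often stabilizes its targets, and the HIF1A mRNA is a known target of all these proteins. HIF1A and EPAS1 are the oxygen-labile subunits of the hypoxia-inducible transcription factors. With oxygen, prolyl hydroxylases such as EGLN1 and EGLN3 mark them for degradation. When oxygen is scarce they accumulate and activate genes for glucose uptake, glycolysis, lactate formation, angiogenesis and mitophagy, among them EGLN3 itself. HIF1A is therefore controlled largely as a protein, which the arrays did not measure, and the sources used here describe no hypoxia treatment.

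The hypoxia-inducible factors bind a short core, ACGTG, in promoters of their targets. It was searched on both strands, as ACGTG on the gene's strand and as CACGT for the other strand, in the 250 bases before each transcription start of the RefSeq promoter table. Where both matches overlap they form CACGTG. The table held 54 starts of 31 members, and 23 of these windows held the core (42.6%), against 18.5% of all 35116 windows. Counted by gene, 20 of the 31 members had it before at least 1 start, against 21.7% of all gene symbols. Genes with several starts had more windows in which to find it. Split by outcome against HuR, 4 of the 8 members with a window that were lower in both TIA lines had the core. HK1, ENO1, PGAM1 and SLC2A1, also lower in both, had none. The core was present for 2 of 3 members higher in both lines, 4 of 6 that passed in 1 line and 9 of 13 that passed in neither. A tie between the core and the outcome was not tested. Windows of 6 members are shown because these genes stood for the different outcomes described further on: HK2, LDHA and PDK3 were lower in both TIA lines than in the HuR line, ENO2 and ALDOC were higher, and PGK1 did not pass the test. All 6 windows held the core, so they do not show how often it was absent. Capitals mark the core on either strand, and each line ends at the base before the farthest upstream start.
HK2: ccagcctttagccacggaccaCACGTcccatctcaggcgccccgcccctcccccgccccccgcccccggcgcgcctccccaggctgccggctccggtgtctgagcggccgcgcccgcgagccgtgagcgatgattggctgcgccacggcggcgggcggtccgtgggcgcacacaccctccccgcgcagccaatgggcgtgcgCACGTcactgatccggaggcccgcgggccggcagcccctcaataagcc
LDHA: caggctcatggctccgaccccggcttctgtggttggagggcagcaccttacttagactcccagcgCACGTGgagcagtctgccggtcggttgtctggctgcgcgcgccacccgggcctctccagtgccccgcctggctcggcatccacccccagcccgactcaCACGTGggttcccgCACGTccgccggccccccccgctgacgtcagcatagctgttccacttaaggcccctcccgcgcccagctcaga
PDK3: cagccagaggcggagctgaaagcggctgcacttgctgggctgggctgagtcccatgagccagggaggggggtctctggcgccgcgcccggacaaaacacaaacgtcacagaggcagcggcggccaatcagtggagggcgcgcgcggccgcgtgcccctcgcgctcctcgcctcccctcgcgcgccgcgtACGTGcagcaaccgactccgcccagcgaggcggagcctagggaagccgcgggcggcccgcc
ENO2: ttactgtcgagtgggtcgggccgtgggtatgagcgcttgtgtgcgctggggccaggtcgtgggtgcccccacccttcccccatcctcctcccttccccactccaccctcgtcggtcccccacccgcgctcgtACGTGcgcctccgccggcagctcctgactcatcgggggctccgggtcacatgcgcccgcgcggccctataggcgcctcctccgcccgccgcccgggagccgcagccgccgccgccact
ALDOC: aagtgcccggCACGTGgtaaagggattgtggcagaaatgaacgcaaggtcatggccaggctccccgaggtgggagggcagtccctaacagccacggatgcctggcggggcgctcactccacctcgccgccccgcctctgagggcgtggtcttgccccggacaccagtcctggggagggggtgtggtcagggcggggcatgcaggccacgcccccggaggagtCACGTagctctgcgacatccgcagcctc
PGK1: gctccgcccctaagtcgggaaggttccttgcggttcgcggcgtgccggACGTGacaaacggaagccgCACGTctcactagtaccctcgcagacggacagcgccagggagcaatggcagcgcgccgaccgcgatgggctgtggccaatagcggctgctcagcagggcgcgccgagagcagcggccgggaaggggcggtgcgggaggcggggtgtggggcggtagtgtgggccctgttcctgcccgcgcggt

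On GRCh38.p14 these windows were chr2:74833877-74834126, chr11:18394313-18394562, chrX:24465036-24465285, chr12:6914330-6914579 and chrX:78103998-78104247 on the plus strand and chr17:28576896-28577145 on the minus strand. LDHA had 5 matches, which began 185, 184, 87, 86 and 73 bases before the start and formed CACGTG at 2 places. PDK3 had a single match at 61 bases and ENO2 a single match at 118 bases. HK2 had matches at 229 and 48 bases, ALDOC at 240, 239 and 28 bases, and PGK1 at 202 and 183 bases. The match describes these letters only, and says nothing of binding in these cells.

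The GFP 1 array stood apart from the other 7. On it 86.1% of probes were well above background, against 53.3% to 58.6% elsewhere, and its local background was 90 against 37.4 to 43.5 intensity units. The correlation between the 2 arrays of a line was 0.947 for GFP and 0.993 to 0.997 for the other lines. No spot was saturated and all arrays lay on 1 slide. Among the members, GFP 1 gave the lowest of the 8 values for 16 of 34 genes, and the median gap between the 2 arrays of a line was 0.32 in GFP, 0.07 in HuR, 0.12 in TIA1 and 0.13 in TIAR. TIAL1, which encodes TIAR, read 4.87 and 4.98 on the TIAR arrays and 1.63 to 2.52 elsewhere. The brighter TIA1 probe had a mean of -0.97 on the TIA1 arrays, below its -0.05 to 0.17 on the control arrays, and the ELAVL1 probe read 0.33 and 0.42 on the HuR arrays and -0.28 to 1.09 elsewhere. Whether those probes lie within the expressed transgenes is not known, so they do not check the TIA1 and HuR labels, and for TIA1 2 the title names GFP-TIA1 while its source name reads GFP-TIA2. Of 7 markers of HEK293 cells, VIM, KRT8, KRT18, NEFL, CDH2 and PAX2 were well above background on all 8 arrays and NEFM on 7. Of 6 markers of other cell types, PECAM1, HBB and CD3E had no probe well above background on both arrays of any line. PTPRC and COL1A1 were well above background on all 8 arrays and ALB on 6. By the test described below ALB and COL1A1, but not PTPRC, were higher in both TIA lines than in HuR cells. Of all probes 24.2% and 18.1% were higher in TIA1 and TIAR cells. The summed linear signal of the other 3 (PTPRC, ALB and COL1A1) was 0.255 and 0.278 on the HuR arrays, 0.493 to 0.606 on the TIA arrays, 0.217 on GFP 2 and 4.83 on GFP 1, where 1 is the 75th percentile. That of the HEK293 markers was 109 to 174. The part of these shifts in the results was not tested.

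TIA1- and TIAR-expressing cells had less RNA of several glycolysis genes than HuR-expressing cells, with a few members moving the other way. In TIA1 against HuR, 14 of the 34 members that could be measured were lower, 3 were higher and 17 did not pass (limma with Benjamini-Hochberg adjustment over all tested probes, adjusted p under 0.05). Of all 28717 probes tested, 17.3% were lower, 24.2% higher and 41.5% passed in either direction, while 41.2% of the members were lower and 8.82% higher. The median log2 difference was -0.30 for the members and 0.08 for all tested probes. In TIAR against HuR, 9 members were lower, 4 were higher and 21 did not pass, and of all 29054 probes 12.6% were lower, 18.1% higher and 30.7% passed. Here the median was -0.26 for the members and 0.05 for all tested probes. With a 2-fold change asked for as well, HK2 and PDK3 were lower and ALDOC higher in TIA1 cells, and HK2 and NDRG1 were lower and ALDOC higher in TIAR cells. Of all probes, 4.9% and 8.51% were lower and higher by that rule in TIA1 cells (13.4% in either direction), and 3% and 7.07% in TIAR cells (10.1%). These comparisons share the HuR arrays. Taken apart, the 22 genes of sugar uptake and breakdown had 9 lower and 2 higher in TIA1 cells and 8 lower and 2 higher in TIAR cells (median log2 difference -0.26 and -0.27). The 12 measured genes of oxygen sensing and the hypoxia response had 5 lower and 1 higher in TIA1 cells but 1 lower and 2 higher in TIAR cells (median -0.33 and -0.13). Whether the gene groups differ was not tested. The counts rest on the closeness of the HuR arrays. Without HuR 1 the members that passed were 3 in TIA1 cells and 0 in TIAR cells, and without HuR 2 they were 4 and 0, with 11.4%, 2.66%, 10.3% and 2.28% of all probes passing in these fits on 3 arrays. HK2, PDK3 and ALDOC passed in TIA1 cells whichever array was left out. In RNA from whole cultures, fewer cells that express a gene and less of its RNA per cell cannot be told apart.

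**Figure D1:**
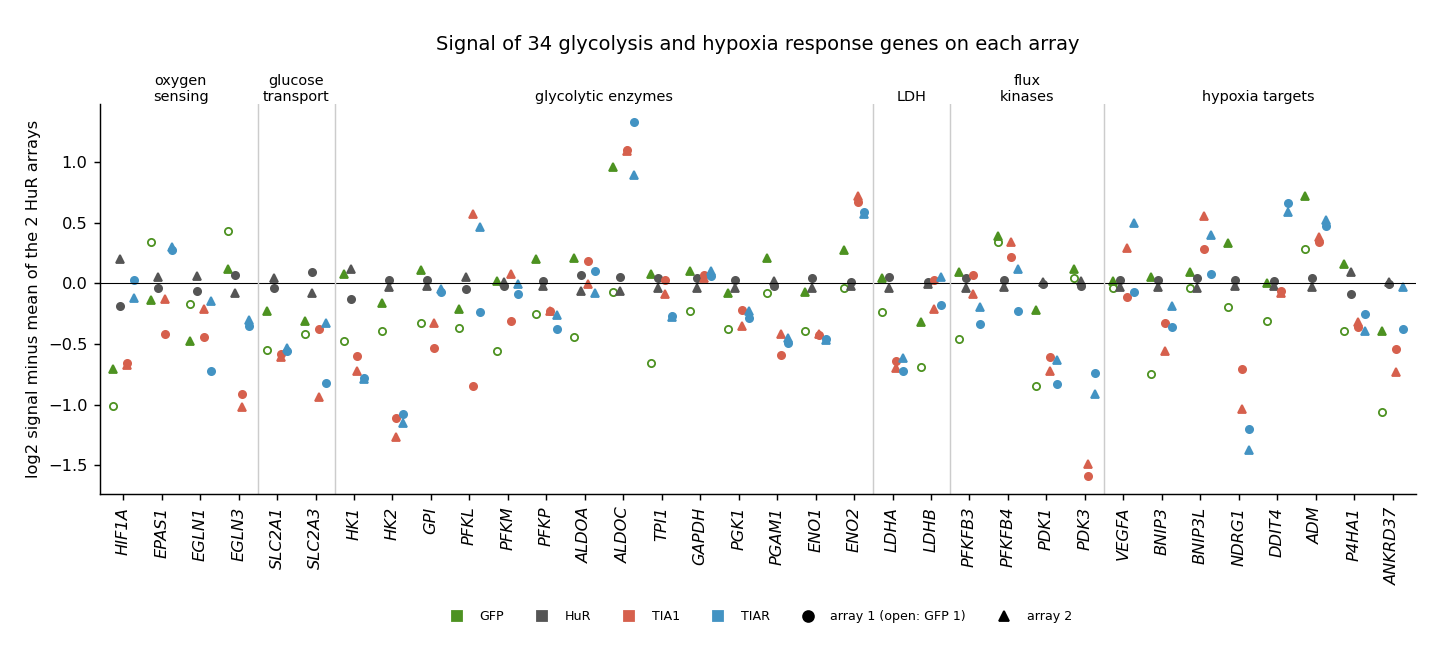
Log2 signal of each of 34 members (x axis, by role) on each of the 8 arrays, minus the mean of the 2 HuR arrays of that gene (y axis, log2 units). Circles are arrays 1 and triangles arrays 2 of the GFP (green), HuR (grey), TIA1 (red) and TIAR (blue) lines, and open circles are GFP 1. HK2, LDHA, NDRG1 and PDK3 show all 4 TIA arrays below all 4 other arrays, and ENO2 shows them above.

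Of the 4 oxygen sensing genes, HIF1A and EGLN3 were lower in TIA1 cells than in HuR cells, and none passed in TIAR cells. Of all probes, 17.3% were lower in TIA1 cells, and 30.7% passed in either direction in TIAR cells. HIF1A (probe on chromosome 14 from 62214845 to 62214904, hg19 or GRCh37, as for all probe positions) read 0.52 and 0.51 on the TIA1 arrays, 1.21 and 1.06 on the TIAR arrays, 0.99 and 1.38 on the HuR arrays and 0.17 and 0.47 on the GFP arrays. TIA1 and GFP were the low lines and HuR and TIAR the high ones, with TIAR within the range of HuR. The log2 difference from HuR was -0.67 (SE 0.16, adjusted p = 0.033 from limma) in TIA1 cells, a 1.59-fold lower signal that no longer passed without any one of the 4 arrays, and -0.05 (SE 0.17, adjusted p = 0.84) in TIAR cells. The other HIF1A probe, from 62211472 to 62211531, gave -0.96 (SE 0.22, adjusted p = 0.033) and 0.07 (SE 0.12, adjusted p = 0.70). EGLN3, the prolyl hydroxylase that hypoxia-inducible factors themselves induce, read -3.53 and -3.64 in TIA1 cells, -2.97 and -2.92 in TIAR cells, -2.55 and -2.70 in HuR cells and -2.19 and -2.50 in GFP cells. All values of TIA1 lay lowest, those of TIAR next, and those of GFP highest, just above HuR. EGLN3 was lower than in HuR cells by 1.95-fold in TIA1 cells (log2 difference -0.96, SE 0.11, adjusted p = 0.0061), and its difference of -0.32 in TIAR cells had an adjusted p of 0.085. EPAS1, the second oxygen-labile subunit, had log2 differences from HuR of -0.28 in TIA1 and 0.28 in TIAR cells, and EGLN1, the main prolyl hydroxylase of most cells, of -0.32 and -0.44. None of these passed, with adjusted p from 0.093 to 0.20.

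The widely expressed glucose transporter SLC2A1 (GLUT1) was lower in both TIA lines. It read 1.92 and 1.89 on the TIA1 arrays, 1.94 and 1.97 on the TIAR arrays, 2.46 and 2.54 on the HuR arrays and 1.95 and 2.27 on the GFP arrays. The TIA arrays thus lay below both HuR arrays but overlapped GFP 1. Its log2 difference from HuR was -0.60 (SE 0.09, adjusted p = 0.012) in TIA1 and -0.55 (SE 0.09, adjusted p = 0.022) in TIAR cells. Its other probe, which was dim, gave 0.57 (SE 0.47) and -0.09 (SE 0.14) and did not pass. SLC2A3 (GLUT3), the neuronal transporter, was dim, with -4.13 ± 0.12 (SD, n = 2) in HuR cells, and well above background on 1 of the 2 TIA1 arrays. Its differences of -0.66 and -0.58 did not pass (adjusted p = 0.073 and 0.095).

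Hexokinases trap glucose in the cell by phosphorylation, and both measured ones were lower in both TIA lines. HK2, the inducible isoenzyme (chromosome 2 from 75120331 to 75120390), read 1.31 and 1.15 in TIA1 cells, 1.34 and 1.27 in TIAR cells, 2.45 and 2.39 in HuR cells and 2.03 and 2.26 in GFP cells. All 4 TIA arrays lay clearly below all 4 other arrays. The signal was 2.28-fold lower in TIA1 cells (log2 difference from HuR -1.19, SE 0.11, adjusted p = 0.0041) and 2.17-fold lower in TIAR cells (-1.12, SE 0.10, adjusted p = 0.0063). HK1, the constitutive isoenzyme, had log2 differences from HuR of -0.65 in TIA1 (SE 0.13, adjusted p = 0.022) and -0.78 in TIAR cells (SE 0.13, adjusted p = 0.018).

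Of the 14 glycolytic enzymes, 5 were lower and 2 higher in TIA1 cells (35.7% and 14.3%, against 17.3% and 24.2% of all probes). In TIAR cells 4 were lower and 2 higher (28.6% and 14.3%, against 12.6% and 18.1% of all probes). HK1, HK2, PGAM1 and ENO1 were lower in both, and GPI, which converts glucose 6-phosphate to fructose 6-phosphate, in TIA1 cells (-0.43, SE 0.11, adjusted p = 0.042, against -0.06 in TIAR cells). In TIA1 cells GPI no longer passed under 7 of 13 other settings. ENO1, the enolase of most tissues, had log2 differences of -0.42 in TIA1 and -0.46 in TIAR cells, and PGAM1, the phosphoglycerate mutase, of -0.50 and -0.47, each with a standard error of 0.09 to 0.11 and an adjusted p of 0.026 to 0.031. With the authors' value table PGAM1 no longer passed in either line, and its difference in TIAR cells was -0.03. ENO1 and SLC2A1 then no longer passed in TIAR cells, both at -0.25. The median of that table was 7.08 on both TIAR arrays and 7.23 or 7.24 on the others. The part of this offset in these values was not tested. ENO2 and ALDOC were higher in both TIA lines. ENO2, the neuronal enolase, read 1.28 and 1.33 in TIA1 cells, 1.20 and 1.18 in TIAR cells, 0.62 and 0.59 in HuR cells and 0.57 and 0.88 in GFP cells, so that every TIA array was above every other array. It was 1.62-fold higher than HuR in TIA1 cells (log2 difference 0.70, SE 0.09, adjusted p = 0.0083) and 1.50-fold in TIAR cells (0.58, SE 0.09, adjusted p = 0.017). ALDOC, the brain aldolase, read -1.40 and -1.41 in TIA1 cells, -1.17 and -1.61 in TIAR cells, -2.45 and -2.56 in HuR cells, and -2.57 on GFP 1 against -1.54 on GFP 2. The TIA arrays were above both HuR arrays, and the GFP arrays fell on either side. ALDOC was 2.14-fold higher than HuR in TIA1 cells (1.10, SE 0.10, adjusted p = 0.004) and 2.16-fold in TIAR cells (1.11, SE 0.18, adjusted p = 0.019), but under 2-fold with normexp background correction, quantile normalization or the authors' value table.

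GAPDH, the dehydrogenase often used as a reference, read between 7.27 and 7.60 on all 8 arrays, with log2 differences from HuR of 0.06 and 0.08. ALDOA, TPI1 and PGK1, which act around that step, had differences between -0.28 and 0.08 and did not pass. The phosphofructokinases commit sugar to glycolysis, and PFKL, PFKM and PFKP did not pass either. The 2 TIA1 arrays differed by 1.42 in PFKL, the widest gap of any member within a line. Its log2 difference from HuR was -0.14 with both TIA1 arrays and 0.57 without TIA1 1. PFKP had -0.23 and -0.32, and its other probe -0.43 (SE 0.09, adjusted p = 0.025) in TIA1 and -0.37 (SE 0.10, adjusted p = 0.054) in TIAR cells.

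**Figure D2:**
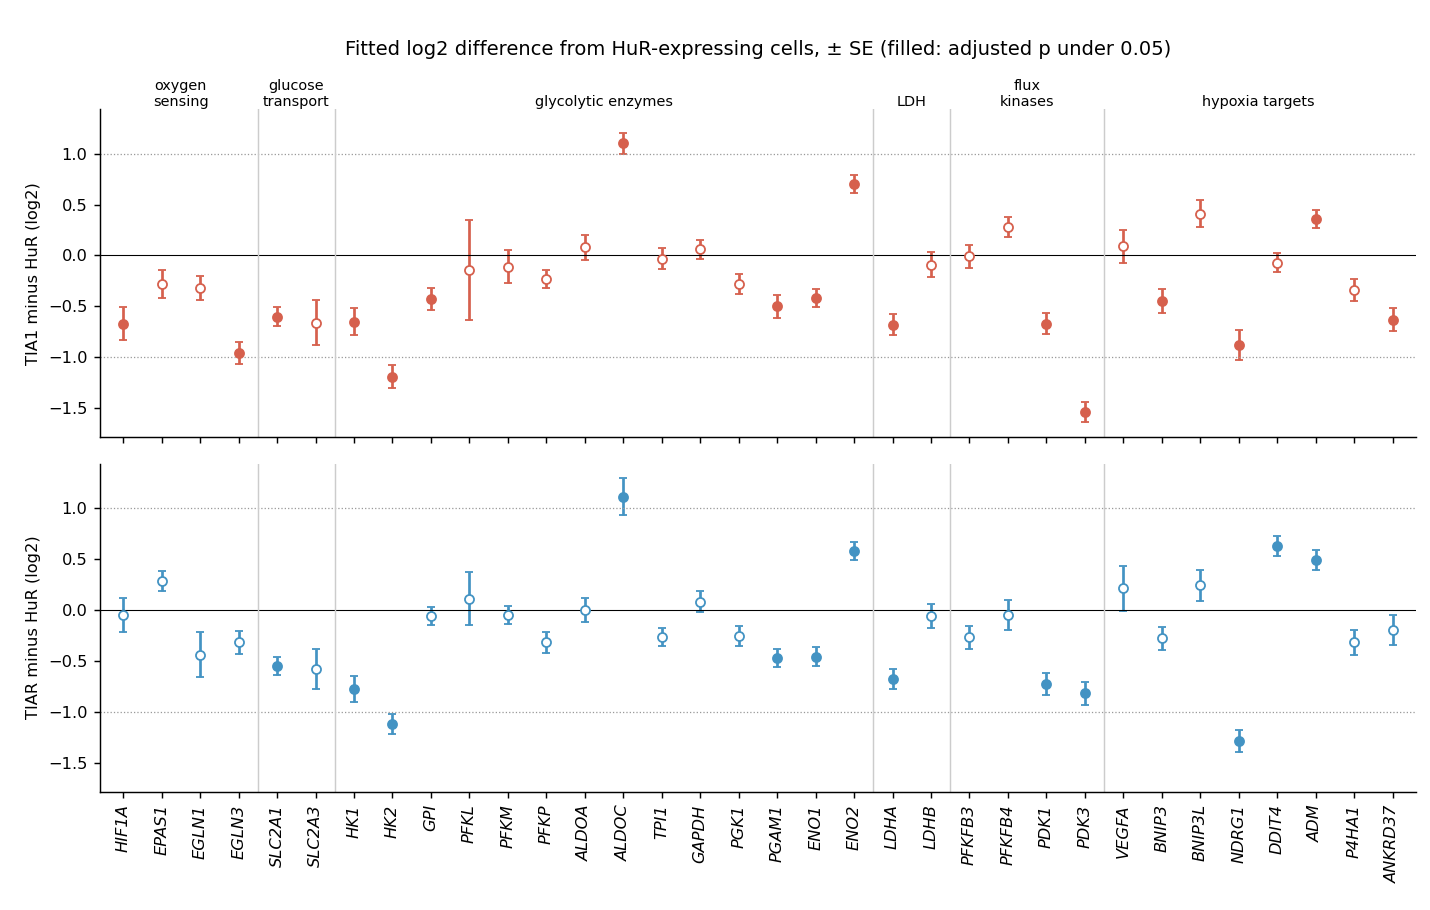
Fitted log2 difference from HuR-expressing cells (y axis, log2 units) of the 34 members (x axis, by role) in TIA1 (upper) and TIAR cells (lower). Points are limma estimates on 2 arrays per line, bars are standard errors, filled points have an adjusted p under 0.05, and dotted lines mark 2-fold. HK2, LDHA, PDK1, PDK3 and NDRG1 are filled below 0 in both panels, and ALDOC, ENO2 and ADM above 0, while DDIT4 is filled in the TIAR panel alone.

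Lactate dehydrogenases turn pyruvate into lactate, the end product of glycolysis without respiration. LDHA, the hypoxia-induced subunit (chromosome 11 from 18428789 to 18428848), read 5.25 and 5.19 in TIA1 cells, 5.17 and 5.27 in TIAR cells, 5.94 and 5.85 in HuR cells and 5.65 and 5.93 in GFP cells. The 4 TIA arrays lay close together and below every other array. LDHA was 1.60-fold lower than HuR in both lines (log2 difference -0.68, SE 0.10, adjusted p = 0.010 in TIA1 and 0.016 in TIAR cells). A further probe named LDHA, which the array design places on chromosome 9, gave -0.75 and -1.42. LDHB, the subunit of oxidative tissues, had differences of -0.09 and -0.06 that did not pass, while its other probe gave -0.57 (SE 0.14, adjusted p = 0.038) and -0.39 (SE 0.10, adjusted p = 0.046).

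Pyruvate dehydrogenase kinases inhibit pyruvate dehydrogenase, and PDK1 and PDK3 were lower in both TIA lines than in HuR cells. PDK3 (chromosome X from 24546208 to 24546267) read -2.04 and -1.94 in TIA1 cells, -1.19 and -1.36 in TIAR cells, -0.47 and -0.43 in HuR cells and -0.41 and -0.33 in GFP cells. The control lines were nearly level, TIAR lay below them and TIA1 lower still. PDK3 was 2.91-fold lower than HuR in TIA1 cells (log2 difference -1.54, SE 0.10, adjusted p = 0.0026) and 1.77-fold lower in TIAR cells (-0.82, SE 0.11, adjusted p = 0.013). PDK1, a classical hypoxia-induced gene, had -0.67 (SE 0.10, adjusted p = 0.010) and -0.73 (SE 0.11, adjusted p = 0.017). Unlike PDK3, its TIA arrays (0.75 to 0.97) lay between the GFP arrays (0.73 and 1.36), and the HuR arrays read 1.57 and 1.59. PFKFB3 and PFKFB4 make the allosteric activator of phosphofructokinase. Their differences from HuR lay between -0.27 and 0.28 and did not pass.

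The hypoxia targets outside glycolysis passed in both directions. Of 8 measured, 3 were lower and 1 higher in TIA1 cells (37.5% and 12.5%, against 17.3% and 24.2% of all probes). In TIAR cells 1 was lower and 2 higher (12.5% and 25%), near the 12.6% and 18.1% of all probes. NDRG1, a stress-responsive gene strongly induced by hypoxia (chromosome 8 from 134249719 to 134249778), read 3.31 and 2.98 in TIA1 cells, 2.82 and 2.65 in TIAR cells, 4.05 and 4.00 in HuR cells and 3.82 and 4.35 in GFP cells. Every TIA array was below every other array, and the TIAR arrays were the lowest. NDRG1 was 1.84-fold lower than HuR in TIA1 cells (log2 difference -0.88, SE 0.15, adjusted p = 0.014) and 2.44-fold lower in TIAR cells (-1.29, SE 0.11, adjusted p = 0.0063). BNIP3, a mitophagy receptor, and ANKRD37 were lower in TIA1 than in HuR cells, with log2 differences of -0.45 (SE 0.12, adjusted p = 0.044) and -0.63 (SE 0.11, adjusted p = 0.016). They no longer passed under 7 (BNIP3) and 5 (ANKRD37) of 13 other settings. For both genes the TIA1 arrays lay between the GFP arrays. The differences from HuR in TIAR cells were -0.28 and -0.20 and did not pass.

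ADM, which encodes the vasodilator adrenomedullin, was higher in both TIA lines than in HuR cells. The log2 differences were 0.36 (SE 0.09, adjusted p = 0.041) and 0.49 (SE 0.10, adjusted p = 0.027). ADM no longer passed under 9 of 13 other settings in TIA1 cells and 6 of 13 in TIAR cells. Its TIA arrays (2.97 to 3.15) lay between the GFP arrays (2.91 and 3.35), and the HuR arrays read 2.67 and 2.60. DDIT4 (REDD1), a stress-induced inhibitor of mTORC1 (chromosome 10 from 74035363 to 74035422), read 3.77 and 3.70 in TIAR cells, 3.05 and 3.03 in TIA1 cells, 3.13 and 3.09 in HuR cells and 2.80 and 3.11 in GFP cells. The TIAR arrays alone stood high. DDIT4 was 1.55-fold higher than HuR in TIAR cells (0.63, SE 0.10, adjusted p = 0.016), with a difference of -0.07 in TIA1 cells. VEGFA, the angiogenic factor, had 0.09 and 0.21 and did not pass, but its other probe gave -0.53 (SE 0.12, adjusted p = 0.031) in TIA1 and -0.24 in TIAR cells. BNIP3L, a second mitophagy receptor, had 0.41 (SE 0.13, adjusted p = 0.066) and 0.24, and its other probes 0.60 and 0.58 in TIA1 cells (adjusted p = 0.019 and 0.036) and 0.77 and 0.45 in TIAR cells (adjusted p = 0.020 and 0.30). P4HA1, a collagen prolyl hydroxylase, had -0.34 and -0.32 and did not pass. CA9, the tumour-associated carbonic anhydrase, was well above background on GFP 1 only, the array with the high background, and was not tested.

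**Figure D3:**
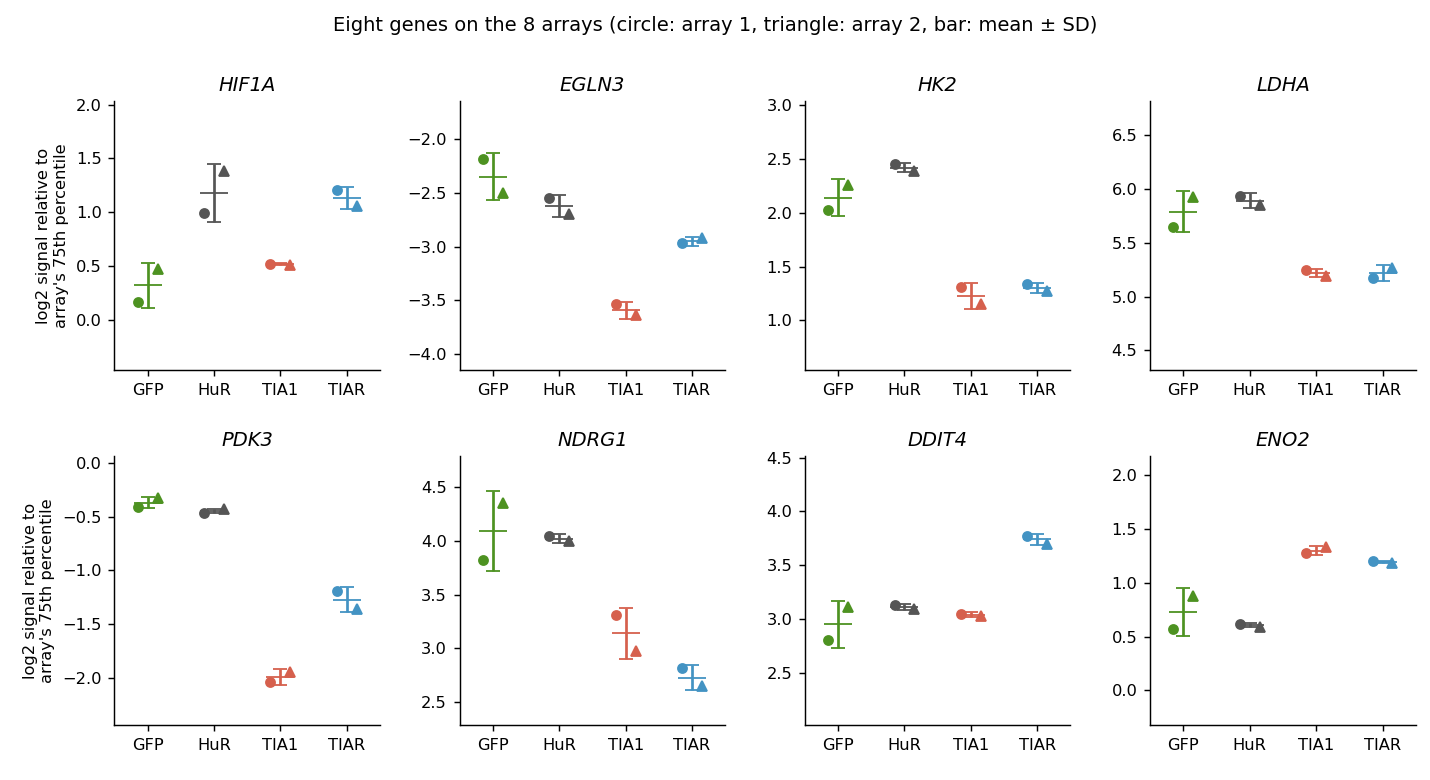
Log2 signal relative to the array's 75th percentile (y axis, equal spans in all panels) of 8 members in the 4 lines (x axis). Circles and triangles are arrays 1 and 2, and bars show the mean and SD of the 2 arrays. TIAR sits with HuR for HIF1A, apart from it for HK2, LDHA, PDK3 and NDRG1, and alone above all others for DDIT4.

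TIAR- and TIA1-expressing cells were then compared directly, to see whether the members that passed in a single line differed between the lines. None of the 34 members passed in limma's test, against 3.49% of all 28017 probes tested, and 6 members had an unadjusted p under 0.05, against 23.8% of all probes. PDK3 was 0.72 higher in TIAR cells (log2 difference, SE 0.13, adjusted p = 0.060), DDIT4 0.70 (SE 0.11, adjusted p = 0.053), EGLN3 0.64 (SE 0.11, adjusted p = 0.062), HIF1A 0.62 (SE 0.12, adjusted p = 0.069), EPAS1 0.56 (SE 0.14, adjusted p = 0.11) and GPI 0.37 (SE 0.13, adjusted p = 0.18). These 6, picked by their unadjusted p, had the same sign. Over all 34 members the median log2 difference was 0.03, and 13 were negative. DDIT4 passed with the authors' value table (0.83, adjusted p = 0.044) and among probes well above background on all 4 arrays (0.70, adjusted p = 0.047). The other HIF1A probe gave 1.02 (SE 0.23, adjusted p = 0.093). HK1, HK2, SLC2A1, PGAM1, ENO1, LDHA and PDK1, which were lower in both TIA lines than in HuR cells, had log2 differences between the TIA lines of -0.13 to 0.07 with standard errors of 0.11 to 0.13.

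Against the GFP line no probe of the array passed in limma's test when both GFP arrays were used (0% of the 27997, 28541 and 28827 probes tested in TIA1, TIAR and HuR cells), and hence 0 of 34 members. At an unadjusted p under 0.05 there were 4 members in TIA1 cells (EGLN3, HK2, PDK3 and NDRG1, all lower), 6 in TIAR cells (the same 4 lower, HIF1A and DDIT4 higher) and 1 in HuR cells (HIF1A, higher), against 21.6%, 16.4% and 17.2% of all probes. PDK3 had log2 differences from GFP of -1.62 (SE 0.19, adjusted p = 0.095) in TIA1 and -0.90 (SE 0.19, adjusted p = 0.21) in TIAR cells, and HIF1A of 0.82 (SE 0.22, adjusted p = 0.24) in TIAR and 0.87 (SE 0.23, adjusted p = 0.24) in HuR cells. With a single GFP array the GFP line was assumed to vary like the other line, so such a fit leaves out the gap between the GFP arrays. With GFP 2 as the only GFP array, EGLN3 (-1.09), HK2 (-1.03), PDK3 (-1.66) and NDRG1 (-1.21) were lower in TIA1 cells, NDRG1 (-1.61) was lower in TIAR cells, and ALDOC (-0.97) and ADM (-0.72) were lower in HuR cells. Their adjusted p lay between 0.023 and 0.046. Of all probes in these fits, 14%, 6.79% and 23.2% passed. With GFP 1 as the only GFP array, 5, 7 and 12 members passed, and 35.6%, 28.5% and 54.5% of all probes. All 12 in HuR cells were then higher than in GFP cells, led by ANKRD37 (1.06) and HIF1A (1.02), as were 23.1% of all probes.

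**Figure D4:**
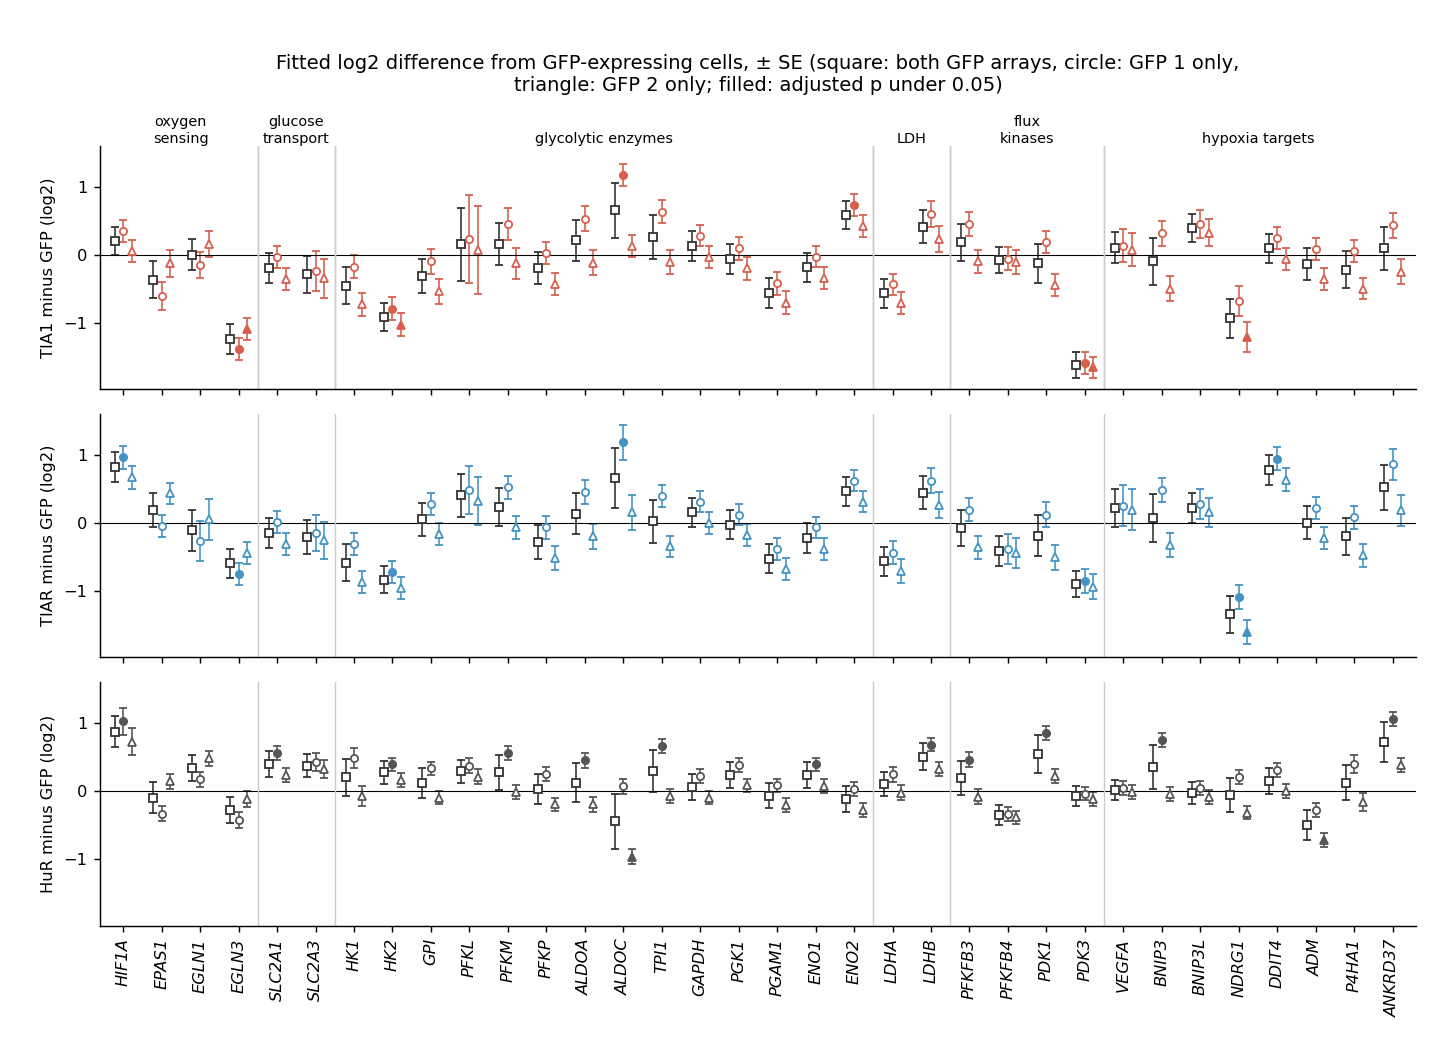
Fitted log2 difference from GFP-expressing cells (y axis, log2 units) of the 34 members (x axis, by role) in TIA1, TIAR and HuR cells. Squares use both GFP arrays, circles GFP 1 only and triangles GFP 2 only, bars are standard errors, and filled symbols have an adjusted p under 0.05. No square is filled, and circles lie above triangles for the 31 of 34 members that read lower on GFP 1 than on GFP 2.

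The 4 TIA arrays were also set against the 4 arrays of the HuR and GFP lines together, a description chosen after the values were seen and given with no test. For 8 members (EGLN3, HK1, HK2, PGAM1, ENO1, LDHA, PDK3 and NDRG1) every TIA array lay below every control array, which held for 9.69% of all probes. For ENO2 every TIA array lay above, as for 12.7% of all probes. Without GFP 1 the counts were 16 below and 1 above, against 15.2% and 19.7% of all probes.

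Other genes of these pathways were counted from lists by role. Of 25 further glycolysis genes tested, 5 were lower and 5 higher than HuR in TIA1 cells (20% each). In TIAR cells 5 were lower and 4 higher (20% and 16%). Of all probes 17.3% were lower and 24.2% higher in TIA1 cells, and 12.6% and 18.1% in TIAR cells. With a 2-fold change as well, these shares of all probes were 4.9%, 8.51%, 3% and 7.07%. Past 2-fold were PDK4, a kinase of pyruvate dehydrogenase (log2 difference 1.01, SE 0.15, adjusted p = 0.015), and LDHC, the testis lactate dehydrogenase (1.26, SE 0.09, adjusted p = 0.0053), both higher in TIAR cells. Of the further hypoxia genes, 8 of 35 tested were lower and 8 higher in TIA1 cells (22.9% each). In TIAR cells 5 and 7 of 34 were (14.7% and 20.6%). STC2, which encodes a secreted glycoprotein, was lower than HuR past 2-fold in both lines (-1.32 and -1.20). Its TIA arrays (-1.77 to -1.30) lay between the GFP arrays (-0.99 and -1.90), and the HuR arrays read -0.29 and -0.14. HMOX1 (-1.40), the heme oxygenase, and BHLHE40 (-1.10), a transcriptional repressor, were lower than HuR past 2-fold in TIA1 cells. ANGPTL4 (1.96 and 1.46), an inhibitor of lipoprotein lipase, WSB1 (1.46 and 1.48), which encodes a ubiquitin ligase subunit, and MAFF (1.10 and 1.20), a small MAF factor, were higher past 2-fold in both lines. RORA (1.15), a nuclear receptor, was so in TIAR cells and PPFIA4 (1.48), a liprin, in TIA1 cells. KISS1R, the kisspeptin receptor, was not well above background in HuR cells and was higher in TIA1 cells (adjusted p = 0.0018 from limma). Its fitted log2 difference of 4.40 fell to 1.51 with the authors' value table and to 1.82 with normexp background correction. The size thus depends on the processing, and no least fold is given.

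**Figure D5:**
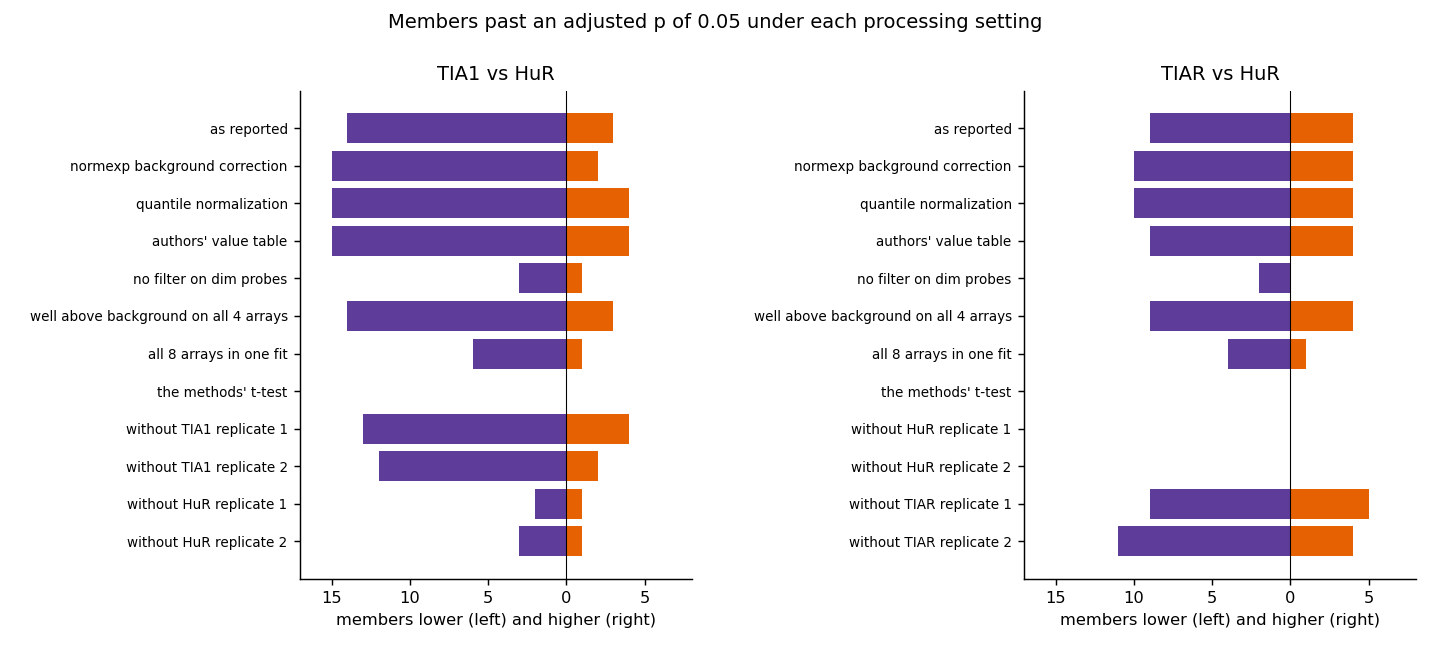
Number of members lower (left of 0) and higher (right of 0) than in HuR-expressing cells at an adjusted p under 0.05 (x axis). The y axis gives the ways of processing, for TIA1 (left panel) and TIAR (right panel). The replicate block and the median over a gene's probes are not shown. The first bars show 14 and 3 members in TIA1 cells and 9 and 4 in TIAR cells, and the right panel is empty without either HuR array.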

How the data were processed

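RNA of the GFP, HuR, TIA1 and TIAR lines was measured on 8 one-colour Agilent arrays with 62976 spots each, 58717 of them not controls. The authors made the deposited intensity values with Feature Extraction 10.7.3.1, which gives the mean and local background signal of a spot and a processed signal with background and spatial trend removed on each array. The authors also deposited log2 values of the series, made by quantile normalization. Their median was lower on both TIAR arrays (7.08) than on the others (7.23 or 7.24), and they were used as deposited. The labels name limma.

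From each log2 processed signal the 75th percentile of its array was subtracted. Spots marked as outliers were dropped before the spots of a probe were averaged. Tested were probes well above background on the 2 arrays of either compared line, over the 4 arrays of the pair, by lmFit and eBayes of limma 3.58.1 (R 4.3.3) with Benjamini-Hochberg adjustment over all tested probes. A gene with several probes (13 of 35 members) was given by its brightest probe that was well above background on the 2 arrays of some line, and other probes were given where they differed. The fits were tested on simulated data. The packages matplotlib 3.10.9 and data.table (version 1.17.8) served for input and plots. Precision is limited by the number of arrays, 2 in each line. The alternatives were normexp (offset 50), quantile normalization, the authors' log2 table, other filters on dim probes, all 8 arrays in 1 fit, the replicate number as a block, the methods' t-test, leaving out each array, and the median over a gene's probes.

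All 35 members were named, and further pathway genes where they passed with a 2-fold change against HuR. The members and lists were chosen with earlier results of these data known. Of 46 member probes with a RefSeq-style name, 45 carried the same symbol in the RefSeq gene list (GRCh38.p14). Promoter windows came from RefSeq on that build, probe positions from the array's own annotation (hg19). Protein sequences were not used here.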

Additional observations from a re-analysis of the deposited data

Results flagged for a closer look

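KISS1R, the receptor of kisspeptin and a gene of the further hypoxia list, differed between the TIA lines. It read -3.07 and -2.73 on the TIA1 arrays and -5.44 and -5.16 on the TIAR arrays, where it was not well above background. The log2 difference of TIAR from TIA1 was -2.39 (SE 0.18, adjusted p = 0.022 from limma). It no longer passed under 7 of 12 other settings (the replicate block, no filter on dim probes, the methods' t-test and without any one of the 4 arrays), with adjusted p from 0.076 to 0.37, and it was -1.29 with normexp background correction (adjusted p = 0.044). On the HuR and GFP arrays it read -7.50 to -5.75 and was not well above background either.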

How the results depend on the processing

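In TIA1 and TIAR against HuR, 17 and 13 members passed the adjusted p. With all 8 arrays in one fit 7 and 5 did, against 18.6% and 12.2% of all probes. With no filter on dim probes 4 and 2 did, against 9.27% and 5.47% of all probes. The methods' t-test paired the arrays by replicate number and had 1 degree of freedom. After adjustment no probe of the array passed by it, and hence no member, so that this outcome says nothing of the members. Unadjusted, 6 and 7 members passed by it, against 21.4% and 17% of all probes. Leaving out single arrays gave 3 to 17 and 0 to 15. By the 2-fold rule the 3 and 3 members became 0 and 0 by the methods' t-test, and in TIAR cells 1 with normexp or the authors' value table. Leaving out single arrays gave 3 to 5 and 0 to 3. Against GFP, 7 members passed in TIA1 cells and 5 in TIAR cells with all 8 arrays in one fit, where 18.9% and 11.6% of all probes passed. Of these members 2 and 1 were past 2-fold. Of the 27951 probes tested in TIA1 cells 1172 were lower and 1351 higher past 2-fold. In TIAR cells 709 and 980 of 28514 were. By the unadjusted t-test 1 passed in TIA1 cells, that 1 also past 2-fold, and 1 in HuR cells. These were 2.94% of the members each, below the 8.07% and 6.55% of all probes. In TIAR cells 0 members passed by it, against 7.21% of all probes. Leaving out single arrays gave 0 to 5, 0 to 7 and 0 to 12 members in TIA1, TIAR and HuR cells, and 0 to 4, 0 to 2 and 0 to 2 past 2-fold. In TIAR against TIA1, 1 member (DDIT4) passed with the authors' value table and with probes well above background on all 4 arrays, 3 by the unadjusted t-test, and 0 without any single array, also past 2-fold. Of all probes in TIAR against TIA1, 2.23% passed with the authors' value table and 4% among those well above background on all 4 arrays. By the unadjusted t-test 8.82% of the members passed there, below the 12.9% of all probes. The cause of the shifts between settings was not tested.

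Of 441 and 442 values of single members against HuR in TIA1 and TIAR cells, 348 and 363 stayed on the same side of the threshold (18 and 16 of them, which passed in no case, with the opposite sign), 81 and 69 no longer passed, and 11 and 10 newly passed. A value past the threshold had the sign opposite to the reported value, which did not pass, for PFKL in TIA1 against HuR, between -0.85 without TIA1 replicate 2 and 0.57 without TIA1 replicate 1, and for PPFIA4 in TIA1 against GFP, between -1.48 without GFP replicate 2 and 1.11 without GFP replicate 1 (-0.18 with both). Quantile normalization and the authors' value table shifted the median of all probes against GFP to 0.13 to 0.24, and normexp shifted it to 0.16 and 0.12 against HuR in TIA1 and TIAR cells and to -0.12 in HuR against GFP. The reported fits did not pair the arrays by replicate number. Deviations from the line means of same-numbered arrays correlated by -0.07 to 0.14 over 29581 probes. With 2 arrays per line these values cannot show whether same-numbered arrays were prepared together. With the replicate block, 14 and 8 members passed in TIA1 and TIAR cells against HuR, as did 37.2% and 20.4% of all probes.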
